A study of Mus musculus with 63 samples.

Results

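Light-responsive glutamatergic neurons of the mouse primary visual cortex (V1) differed in how much of their RNA came from mitochondrial genes, and the 10 cells with the largest share were set beside the 10 with the smallest. The study drew the soma of single layer 2/3 neurons into a pipette in lightly anaesthetised C57BL/6 wild type mice of 70 days, after their calcium response to drifting gratings had been imaged with the dye Cal-520 AM, and sequenced each cell by Smart-seq2. It labelled 46 cells light sensitive (LS) and 17 non-light sensitive (NS), so that all 63 cells share strain, age, dye, anaesthesia and visual stimulus. The labels name no mouse for any cell, so cells of one set may share animals. The LS cells were therefore treated as 1 sample, no test between cells was made, and every SD below is the spread between cells.

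The members were chosen by marker genes and then ranked by the share. Of the 44 cells from LS_3 to LS_46, 36 had more summed FPKM (reads per kilobase of exon and 1000000 reads) of Slc17a7 and Neurod2, genes of glutamatergic neurons, than of Gad1 and Gad2, genes of GABAergic neurons. Removing cells with reads of all of Gfap, S100b and Aqp4, genes of astrocytes, left 31. The corresponding rule on Olig1, Olig2 and Mbp, genes of oligodendrocytes, removed none, and the rule on cells with reads of all of Slc17a7, Neurod2, Gad1 and Gad2 removed 1 more. The 30 cells left, of 63 in all, were ordered by the summed FPKM of the 13 mitochondrially encoded mRNAs (symbols beginning with mt-) as a share of the summed FPKM of all genes. The first 10 are called high-share cells, the last 10 low-share cells, and 10 lay between. Since the share chose both sets, the share and the mt- genes are described and nothing is supported with them.

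Mitochondria carry their own circular DNA, whose 13 mRNAs encode core subunits of complexes I, III, IV and V of oxidative phosphorylation, the chain that makes most of the ATP a neuron spends on ion pumping and synaptic transmission. All other subunits, the proteins of the mitochondrial ribosome and the factors that copy, transcribe and translate mitochondrial DNA are encoded in the nucleus and imported. In single-cell RNA-seq, the mitochondrial share of the RNA is also in common use as a measure of library quality.

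Levels of nuclear genes are given as nuclear TPM, the FPKM of a gene divided by the summed FPKM of all nuclear genes of that cell and multiplied by 1000000, so that more mitochondrial RNA does not by itself lower the others. A nuclear gene was counted as measured when it reached 1 nuclear TPM in at least 10 of the 20 high- and low-share cells. It was called higher or lower when the ratio of the mean over the 10 high-share cells to the mean over the 10 low-share cells was at least 2 or at most 0.5. Differences are log2 of that ratio, positive where the high-share cells had more. Relations with the share are Spearman's rho over the 30 cells, which come from 1 study and share its processing.

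The glutamatergic label held unevenly across the 30 cells. Slc17a7, the vesicular glutamate transporter, had reads in all 30. A list of 35 synaptic and neuronal genes summed to 18393, 27834 and 31701 nuclear TPM in the lowest, median and highest low-share cell, against 2108, 17579.5 and 30844 in the high-share cells. In the high-share set, 3 cells stood under 10000 nuclear TPM, a limit set after the values were seen, namely LS_13 (3911), LS_45 (7496) and LS_4 (2108), as did LS_28, LS_41 and LS_44 between the ends. No low-share cell did. LS_45 also had 202254 nuclear TPM of haemoglobin genes, where the highest low-share cell had 3048. Of the glutamatergic markers, Neurod6 had reads in 1 high-share and 0 low-share cells, and Neurod2 in 7 and 8. Results that touch these cells are therefore given with and without them.

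Library depth moved with the share as well. Reads on listed genes, worked back from FPKM, were 387080, 742572 and 1260928 in the lowest, median and highest high-share cell and 357465, 1083616 and 2375659 in the low-share cells (rho with the share -0.38). Genes above 1 FPKM had medians of 5698 and 6126. The level of 1031 odorant, vomeronasal and taste receptor genes, which cortical neurons are not known to use, had medians of 4.13% and 1.497% of what an even spread of reads over all exons would give, and reached 19.6% in LS_4. The part of these differences in the results below was not tested, but the values after thinning every cell to the same number of reads are given in the closing section.

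The share ran from 1.93% in LS_32 to 15.5% in LS_25. From the top, LS_25 was followed by LS_13 (14.5%), LS_45 (13.9%), LS_10 (11.5%), LS_22 (11.3%), LS_6 (9.595%), LS_4 (9.303%), LS_18 (8.85%), LS_30 (8.43%) and LS_35 (7.56%). The 3 cells with few neuronal transcripts are among the first 7 of this order. The next cell, LS_7, had 6.07%, so that a gap lay at the upper limit. No gap lay at the lower one, where LS_44 had 4.6003% just outside and LS_11 4.54% just inside the low-share set. The low-share cells LS_11, LS_34, LS_23, LS_17, LS_33, LS_40, LS_42, LS_3, LS_29 and LS_32 had a median of 3.99%. The means were 11.04 ± 2.76% and 3.78 ± 0.712% (SD, n = 10 cells each), a ratio of 2.92.

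Counted in reads rather than FPKM, which weights every gene by its length, the share had medians of 4.94% and 1.49%, and the same 10 and 10 cells stood at the ends (rho of both measures 0.9604, n = 30 cells). Cells outside the ranking covered a wider range. The 16 LS cells not chosen ran from 2.43% to 22.5% (median 6.63%) and the 17 NS cells from 0.669% to 18.8% (median 4.27%).

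**Figure D1:**
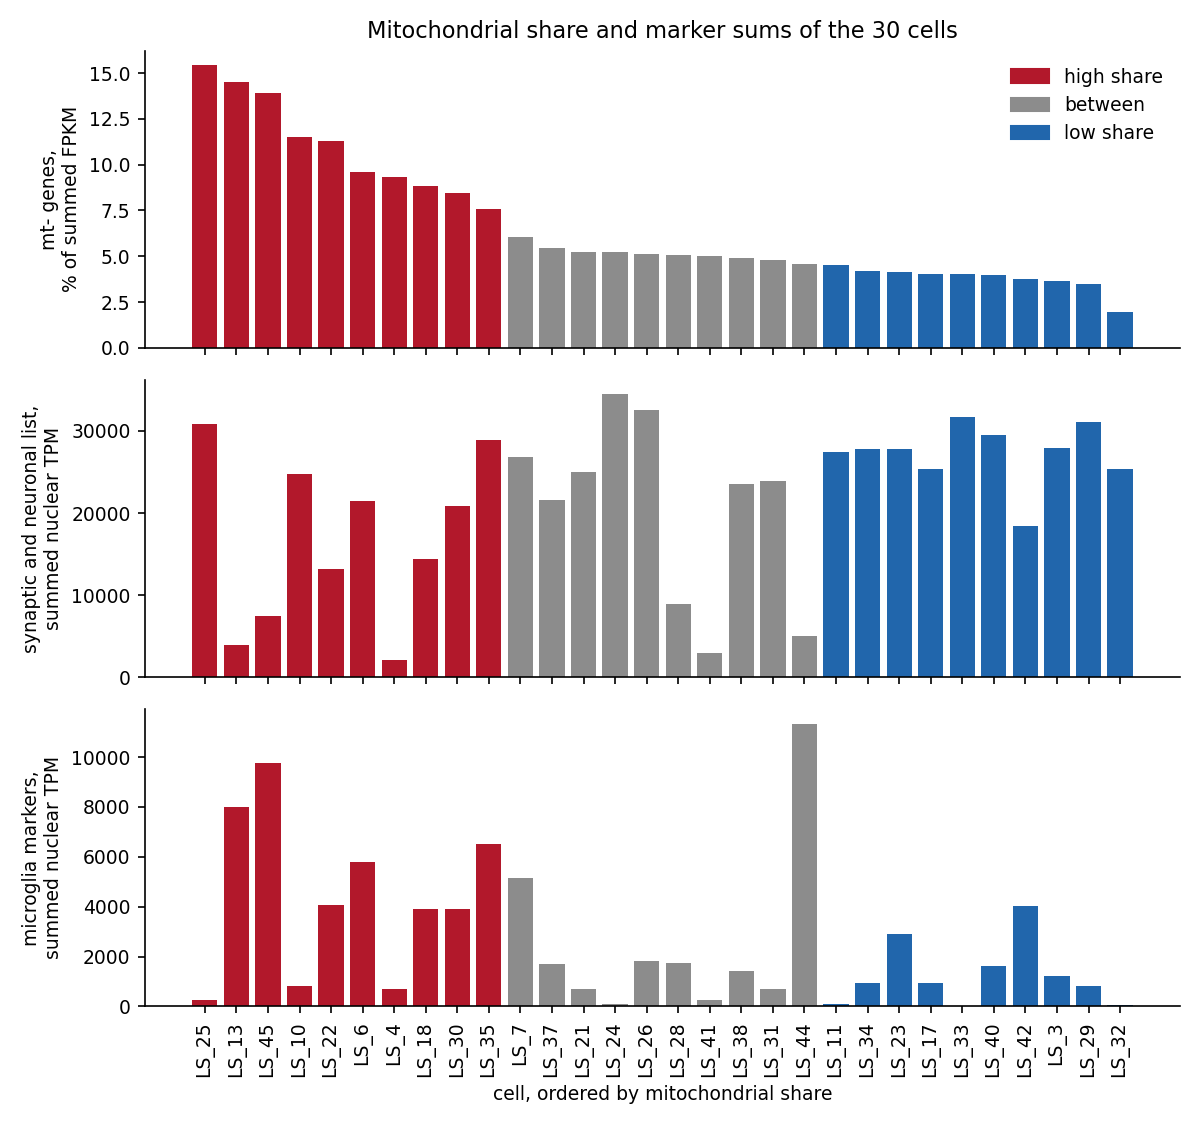
Bars give, for each of the 30 cells in order of falling mitochondrial share, the share of summed FPKM in percent, the summed nuclear TPM of the synaptic and neuronal list, and that of the microglia markers. Red marks the 10 high-share, grey the 10 middle and blue the 10 low-share cells. The neuronal sum is low in LS_13, LS_45 and LS_4 of the high-share cells and in LS_28, LS_41 and LS_44 of the middle cells, and in no low-share cell.

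The difference in share lay in a few of the 13 mRNAs. mt-Cytb, the mitochondrial subunit of complex III, had 5659, 9641 and 18615 FPKM in the lowest, median and highest high-share cell and 1539.7, 2386 and 3726 in the low-share cells. mt-Co1, the catalytic subunit of complex IV, had 5635, 8788 and 12559 against 1254, 2563 and 3267. mt-Nd1, a complex I subunit, had 5958, 7481 and 12758 against 1387, 2124 and 3211. In none of the 3 did the sets overlap, which the ranking by their own sum makes likely. At the median, mt-Cytb made up 29.3% of the mitochondrial FPKM in high-share and 26.3% in low-share cells. mt-Co1 made up 24.7% and 26.3%, and mt-Nd1 22.8% and 24.1%. The cells were ranked by the amount relative to all genes, so composition and amount are not compared.

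The complex I subunits mt-Nd5, mt-Nd4, mt-Nd2 and mt-Nd6 followed with ratios of means of 3.84, 2.97, 2.88 and 2.69, at median FPKM of 2693, 2026, 1363 and 1078 in the high-share cells. mt-Nd6 is the only mRNA of the opposite strand of the circle. The other 6 were almost absent from the table in both sets. Median FPKM in the high-share cells were 14.2 for mt-Co2 and 29.9 for mt-Co3, subunits of complex IV, 33.9 for mt-Atp6 and 13.4 for mt-Atp8, subunits of ATP synthase, and 1.41 for mt-Nd3 and 6.58 for mt-Nd4l. mt-Co2 and mt-Co1 are cut from the same primary transcript, yet mt-Co1 stood at 8788 FPKM.

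Of these 6 near-empty genes, 5 have a near-identical nuclear copy among the annotated genes. A stretch of mitochondrial DNA was copied into chromosome 1, and reads from such a gene match both places. Cut into windows of 50 bases, the annotated transcript of mt-Co2 matched another annotated gene in 100% of windows, mt-Co3 in 99.9%, mt-Atp6 in 99.5%, mt-Nd4l in 98.8% and mt-Nd3 in 97.99% (GENCODE M21). The exception was mt-Atp8, with 0%, which overlaps mt-Atp6 on the same strand, as mt-Nd4l overlaps mt-Nd4. Only annotated transcripts were searched, so its 0% does not show that mt-Atp8 has no nuclear copy. On mitochondrial DNA it lies at 7766-7969, between mt-Co2 and the rest of mt-Atp6. The leading copies of those genes lie near each other on chromosome 1, at 24614885-24615565 and 24613974-24614651, with a stretch between them. Of the abundant genes, mt-Nd1, mt-Cytb and mt-Nd6 matched no other annotated gene. mt-Nd5 and mt-Nd2 matched in 7.61% and 8.19% of windows, but mt-Co1 in 51.1% and mt-Nd4 in 62.2%. The gene that held most of the matching windows was a pseudogene in each case and, but for that of mt-Nd5 (Gm4076), was not among the genes of the table. A stretch of 60 bases of mt-Co2 and of its copy Gm28661 is shown as an example of such a match. Both are printed in capitals throughout, since every base is the same, and lie in GRCm38 at chrM:7113-7172 on the plus strand and chr1:24615406-24615465 on the minus strand, in the exon of each gene.
mt-Co2: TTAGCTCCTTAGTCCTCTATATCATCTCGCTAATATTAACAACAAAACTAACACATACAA
Gm28661: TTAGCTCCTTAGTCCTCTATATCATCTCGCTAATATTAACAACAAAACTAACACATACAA
The levels of the 5 genes, and in part those of mt-Co1 and mt-Nd4, are therefore uncertain, and the share counts only what was assigned to the mt- genes. STAR was run at its defaults apart from the sorting of its output, and how featureCounts treated reads with several matches is not given in the sources used here.

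**Figure D2:**
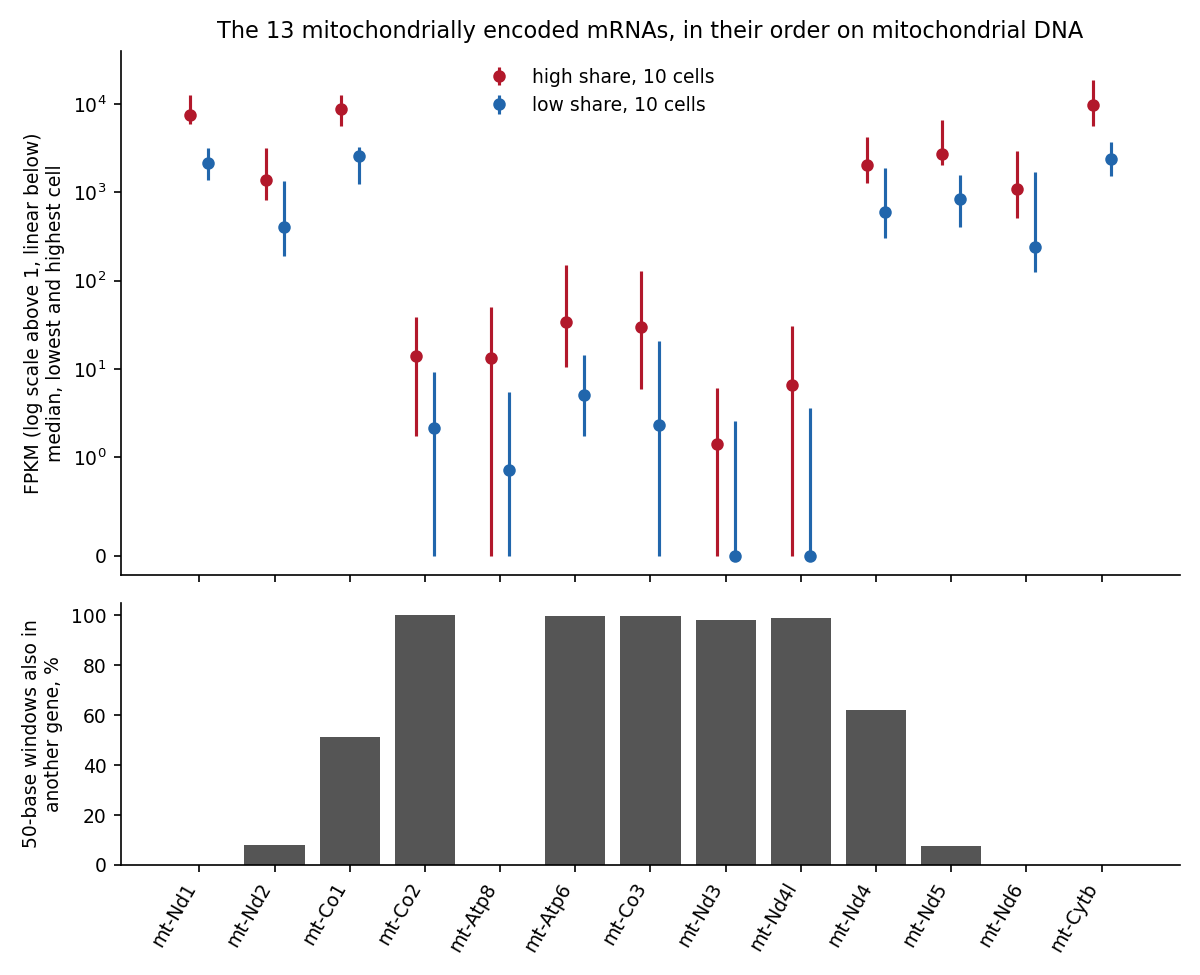
Upper panel, FPKM of each of the 13 mitochondrially encoded mRNAs in the 10 high-share (red) and 10 low-share (blue) cells, with the median as a point and the lowest and highest cell as the line, on an axis that is logarithmic above 1 and linear below. Lower panel, the percentage of 50-base windows of each transcript that also occur in another annotated gene. The 5 genes with nearly all windows shared are near 0 FPKM, as is mt-Atp8, which shares none with another annotated gene.

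Across the nucleus the low-share cells had more genes at a higher level after rescaling. Of the 20166 nuclear genes listed, 6073 were measured, and 683 of those (11.2%) were called higher and 1725 (28.4%) lower in the high-share cells. No gene (0%) separated the sets without overlap. The median log2 ratio over all measured genes was -0.397, with quartiles at -1.12 and 0.33. Taken relative to that median, which balances the directions by construction, 1104 genes were at least 2-fold higher and 1082 lower. The excess of lower genes was not found among short transcripts. With the genes split into 4 bins of exon length, the bin of shortest genes had a median of -0.036, with 247 higher and 262 lower, and the others had -0.45, -0.54 and -0.58. Every list below is read beside these values. Without LS_13, LS_45 and LS_4, 601 genes were higher and 1497 lower. The rescaling itself enlarged the excess of lower genes. Summed nuclear FPKM had means of 288396 in high-share and 250779 in low-share cells, so rescaling lowered the former more. On FPKM that were not rescaled, 690 of 5216 genes were higher and 1137 lower, with a median log2 ratio of -0.205.

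Few nuclear genes of oxidative phosphorylation were called in either direction. The 79 nuclear subunits of complexes I to V, all of them measured, summed to 20629, 32313 and 59402 nuclear TPM in the lowest, median and highest high-share cell and to 23987, 34899 and 46694 in the low-share cells. The sets overlapped over most of their range. Of the 79 genes, 5 were called higher and 4 lower. The ratio of 2.92 in mitochondrial share is no measure to set this against, since the share chose the sets. The median log2 ratio was 0.15, which is 0.55 above all measured genes and 0.25 above genes of like exon length, since 60 of the 79 are in the bin of shortest genes. Their sum had a rho of 0.014 with the share over the 30 cells, 0.19 over the 16 LS cells not chosen and 0.52 over the 17 NS cells.

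By complex, the median log2 ratio was 0.15 for the 36 subunits of complex I (2 higher, 2 lower), 0.301 for the 4 of complex II (1 and 1), 0.26 for the 10 of complex III with cytochrome c (1 and 1), 0.16 for the 12 of complex IV (0 and 0) and -0.13 for the 17 of complex V (1 and 0). Complex II, succinate dehydrogenase, has no mitochondrially encoded subunit. Single subunits went both ways within a complex. Uqcrfs1, the Rieske iron-sulphur protein of complex III, had 42.5, 439 and 2032 nuclear TPM in high-share and 0, 276 and 600.3 in low-share cells (log2 ratio 1.18, or 0.75 without LS_6). Cyc1, the cytochrome c1 of the same complex, had 5.605, 148 and 579.6 against 0, 575 and 1552 (log2 ratio -1.58), and 5 low-share cells lay above all high-share cells. In complex II, Sdhc, a membrane anchor, had 0, 138 and 281 against 0, 36.3 and 201 (log2 ratio 1.29), and Sdha, the flavoprotein, 1.84, 65.2 and 206 against 9.59, 199 and 771 (log2 ratio -1.58).

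Complex IV had no gene past 2-fold. Cox6b1, a small subunit at the outer face, came closest with 463, 1691 and 2901 nuclear TPM against 0, 729.8 and 1922 (log2 ratio 0.96). Cox5a was lower at 68.3, 425 and 1542 against 474, 1112 and 1822 (log2 ratio -0.82, not called). Cox8a, the most abundant nuclear subunit of complex IV, had 1131, 2338 and 5709.7 against 1139.7, 1971 and 7125, a log2 ratio of 0.063. In complex I the called genes were Ndufa1 at 1.07 (as low as 0.76 without LS_13) and Ndufb2 at 1.43, higher, and Ndufb8 at -1.25 among the lower ones. Ndufb2 rested on LS_35 and had a log2 ratio of -0.79 without that cell and of 2.198 without LS_33. Atp5j2, a subunit of the membrane part of ATP synthase, had 82.9999, 171 and 479.8 against 15.7, 90.04 and 291 (log2 ratio 1.03, as low as 0.79 without LS_10). Usmg5, the most abundant listed subunit of complex V, had a log2 ratio of -0.15.

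The genes that express and maintain mitochondrial DNA were not higher by the median of their ratios. Of 76 proteins of the mitochondrial ribosome 58 were measured, with 8 called higher, 11 lower and a median log2 ratio of -0.29. Mrps16 had 0, 378 and 951 nuclear TPM in the high-share and 0, 0 and 253 in the low-share cells (log2 ratio 2.496), with reads in 8 and 4 cells. Mrpl50 had 0, 5.06 and 54.8 against 0, 10.6 and 305 (log2 ratio -2.83), which was -3.86 without LS_22 and -2.14 without LS_33. Of 36 genes for transcription, processing, translation and copying of mitochondrial DNA 13 were measured, 2 of them higher and 4 lower, with a median of -0.54. The sum of the 36 went the other way, with medians of 7681 and 3259 nuclear TPM in high- and low-share cells. Lars2, described next, made up much of it. The sum had a rho with the share of 0.32 over the 30 cells, 0.76 over the 16 LS cells not chosen and 0.15 over the 17 NS cells. Mtif2, which starts mitochondrial translation, had a log2 ratio of -2.81, and of -3.802 without LS_25. Of 12 transcriptional regulators of mitochondrial content only Sirt3 and Yy1 were measured, with log2 ratios of 0.41 and -1.69, and each rested on single cells. Sirt3 had -1.02 without LS_10, and Yy1 had -0.14 without LS_42 and -2.68 without LS_22.

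Lars2, the mitochondrial leucyl-tRNA synthetase, was the most abundant gene of this machinery. It had 1609, 6805 and 13176 nuclear TPM in the lowest, median and highest high-share cell and 411, 2411 and 57406 in the low-share cells. Its median was higher and its mean lower in the high-share cells, because LS_34 alone held 57406 nuclear TPM. The log2 ratio of means was -0.44 with that cell and 0.73 without it, neither past 2-fold. The rho with the share was 0.35.

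Citric acid cycle, import and glycolysis lists lay close to all measured genes. Of 17 measured enzymes of the citric acid cycle and pyruvate dehydrogenase, 0 were called higher and 3 lower, with a median of -0.47. Ogdh, of the oxoglutarate dehydrogenase complex, had 1.18, 70.9 and 359 nuclear TPM in high-share and 7.81, 209 and 1256 in low-share cells (log2 ratio -1.84). Cs, citrate synthase, had 8.28, 121 and 312 against 9.69, 201 and 815 (log2 ratio -1.26, or -0.95 without LS_34). The sets overlapped in both genes. The share of lower genes in this list was below the 28.4% of all measured genes, and its median was -0.07 relative to them. Of 32 measured genes for import, channels, fusion and fission 1 was higher and 5 lower (median -0.41). Hspd1, the matrix chaperonin, had a log2 ratio of -2.19 (-3.02 without LS_13), and Opa1, which fuses inner membranes, -1.64 (-2.45 without LS_22). Of 16 measured glycolytic enzymes none was called in either direction (median -0.46), and Aldoa, the most abundant, had -0.35.

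**Figure D3:**
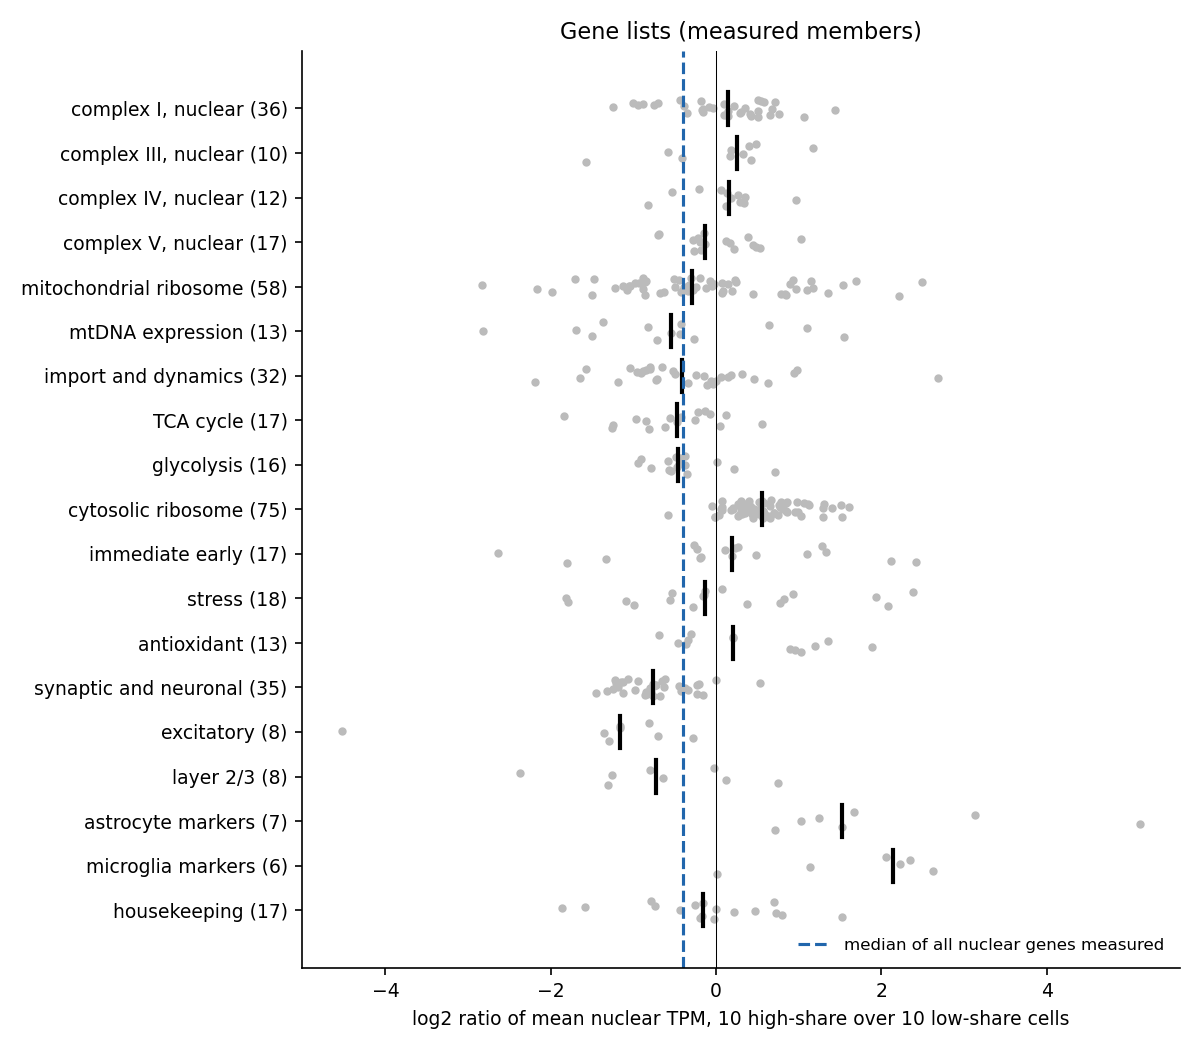
Each grey point is the log2 ratio of mean nuclear TPM of 1 measured gene, 10 high-share over 10 low-share cells, by gene list, with the number of measured members in brackets and the list median as a black bar. The dashed line is the median of all 6073 measured nuclear genes at -0.40. The cytosolic ribosome, astrocyte and microglia lists have their medians right of 0, and the synaptic and excitatory lists left of the dashed line.

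Among lists of cell metabolism, that of the cytosolic ribosome, which makes all proteins outside mitochondria, had the highest median relative to all measured genes. The 75 measured proteins of 76 summed to 32169.5, 47582 and 62047 nuclear TPM in the lowest, median and highest high-share cell and to 18789.8, 28840.5 and 45440.2 in the low-share cells. In 6 of the 10 high-share cells the sum lay above every low-share cell. Of the 75, 11 were called higher, a share near the 11.2% of all measured genes, and 0 lower. A log2 ratio above 0 was found in 71, and the median was 0.55, which is 0.95 above all measured genes. Ribosomal proteins have short mRNAs, 56 of them in the bin of shortest genes, and the median stood 0.66 above genes of like exon length. By that measure the list of enzymes that remove reactive oxygen, described below, stood nearly as high, at 0.65. The sum had a rho of 0.596 with the share over the 30 cells. It was 0.59 over the 24 cells with at least 10000 nuclear TPM of neuronal genes, 0.44 over the 17 NS cells and -0.29 over the 16 LS cells not chosen, so the relation was not shared by the last group.

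Rplp1, a protein of the ribosomal stalk and the most abundant of the list, had 1820.4, 3419 and 6090.5 nuclear TPM in the high-share cells and 707, 1251 and 2375 in the low-share cells. It was above all low-share cells in 6 high-share cells (log2 ratio 1.297). Rplp0, the base of the same stalk, had 22.9, 1694 and 4156 against 166, 607 and 1843 (log2 ratio 1.403). Rps12 had 54.8, 1112 and 4124 against 44.8, 332 and 1036 (log2 ratio 1.604), Rpl13 378, 658 and 1736 against 92.7, 233 and 707 (log2 ratio 1.53) and Rps19 69.5, 159 and 355 against 13.7, 47.1 and 170.3 (log2 ratio 1.51). The sets overlapped in each. Ribosomal protein genes have many processed copies in the genome, and 60% of 50-base windows of Rplp1, 41.8% of Rplp0 and 28.8% of Rpl13 occur in another annotated gene, so their single levels are uncertain. Without LS_13, LS_45 and LS_4 the list median was 0.88 above all genes. Ranking again only the 24 cells with more neuronal transcripts, 10 at each end, gave 0.72.

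**Figure D4:**
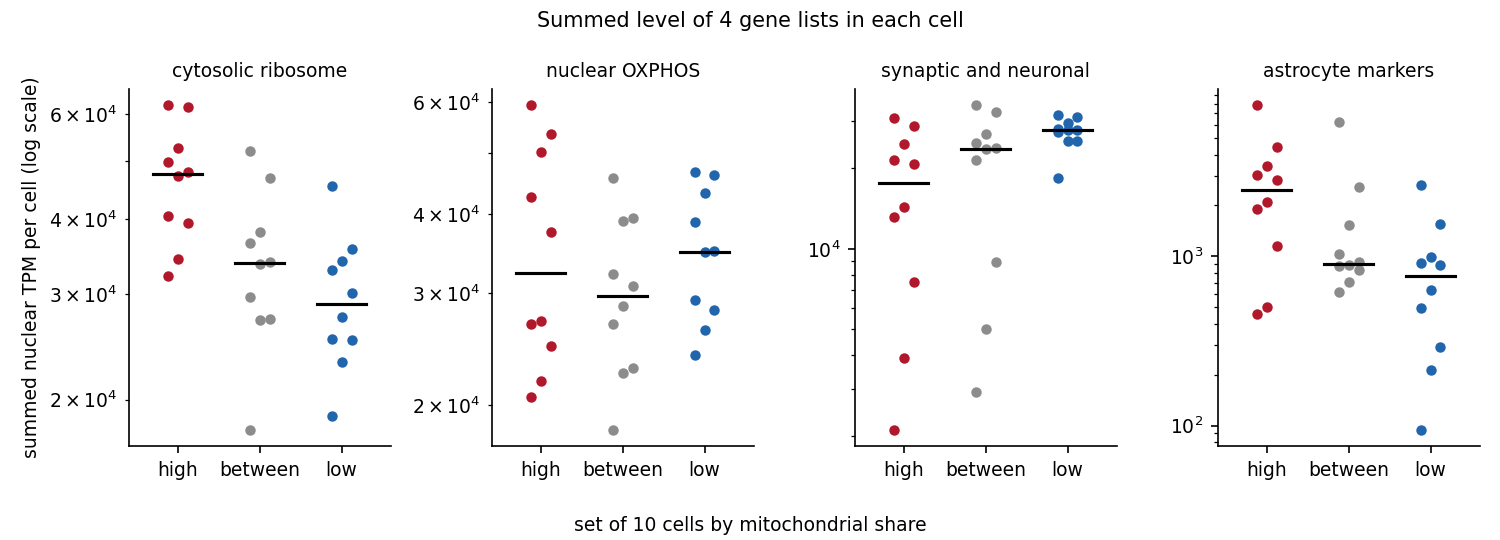
Summed nuclear TPM per cell, on log axes, for the cytosolic ribosome, the nuclear subunits of oxidative phosphorylation (OXPHOS), the synaptic and neuronal list and the astrocyte markers, in the 10 high-share, 10 middle and 10 low-share cells, with each set's median as a bar. The high-share median is 47582 against 28841 for the ribosome, while the OXPHOS medians are 32313 and 34899.

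Genes were then ranked by their correlation with the share, so that the values at the ends are those of the extremes of many genes. Over genes with a mean of at least 50 nuclear TPM, the highest rho with the share was that of Fth1, the heavy chain of ferritin, which stores iron and oxidises it to the stored form. Fth1 (chr19:9980598-9985098 in GRCm38, plus strand) had 8572, 26686 and 58780 nuclear TPM in the lowest, median and highest high-share cell and 5393, 6215 and 12215 in the low-share cells. Of the 10 high-share cells, 9 lay above all low-share cells, and only LS_35 at 8572 did not. The means were 30952 ± 16564 and 7708 ± 2620.0 (SD, n = 10 cells each), a log2 ratio of 2.01 that stayed between 1.85 and 2.12 when any 1 cell was left out. The 10 cells between had 4570.1, 16158 and 40121. The rho was 0.69 over the 30 cells, 0.66 over the 24 with more neuronal transcripts and 0.62 over the 17 NS cells, but -0.39 over the 16 LS cells not chosen. Ftl1, the ferritin light chain, was looked at after the values of Fth1 were seen and had 1452, 6696 and 11754 against 387, 1439 and 5729 (log2 ratio 1.75), with 48.4% of its windows in other genes.

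Cyba had the next highest rho (0.68). It encodes the small subunit of the membrane oxidase that makes superoxide and is best known from phagocytes. Cyba (chr8:122424776-122432930 in GRCm38, minus strand) had reads in 8 of 10 high-share cells (exact binomial 95% interval 44.4% to 97.5%), with a median of 308 and a highest value of 822 nuclear TPM. It had none in the 10 low-share cells, which allows a share of cells with reads of up to 30.8%. Both limits treat the 10 cells of a set as independent draws, which cells that may share mice need not be. Cyba was also picked for its correlation with the share. The limits therefore do not bound the share of cells that express the gene. Of the cells between, 7 of 10 had reads, a number between those of the ends. The high-share cells without reads were LS_22 and LS_35. Since it had reads in fewer than 10 of the 20 cells it is not among the measured genes, and no ratio is given against a set at 0.

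The other genes at the upper end were Mt1, Cst3 and Rplp1. Mt1, a metallothionein that binds zinc and copper, had 1747, 4312 and 21884 nuclear TPM in high-share and 292, 1003 and 3454 in low-share cells, with 7 high-share cells above all low-share cells (log2 ratio 2.25, rho 0.602). Cst3, the secreted protease inhibitor cystatin C, an abundant transcript of glia, had 610.4, 1622 and 6249.7 against 88.2, 764 and 1302, with 9 cells above all low-share cells (log2 ratio 1.99, rho 0.56). Leaving out any 1 cell kept both past 2-fold. The 24 cells with more neuronal transcripts gave rho of 0.64 for Mt1 and 0.55 for Cst3.

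At the lower end of the correlations stood Yaf2, Stk25, Lancl2, Pde1a and Nos1ap. Yaf2, a partner of polycomb complexes (chr15:93284278-93336935 in GRCm38, minus strand), had 0, 1.27 and 57.2 nuclear TPM in the high-share and 38.8, 178 and 325 in the low-share cells, with reads in 5 and 10 cells. In 9 low-share cells it lay above all high-share cells (log2 ratio -3.73, rho -0.67). Its size depended on the choice of cells, being -4.34 without LS_6 but -0.83 when the 24 cells with more neuronal transcripts were ranked again. Stk25, a kinase of the Golgi and of cell polarity, had 0, 14.9 and 69.1 against 0, 156 and 409 (log2 ratio -2.85, rho -0.65). Nos1ap, an adaptor of the neuronal nitric oxide synthase, had 0, 11.1 and 119 against 15.7, 193 and 434 (log2 ratio -2.94, rho -0.62). Lancl2, a membrane-associated protein of the lanthionine synthetase-like family, had 0, 14.9 and 129.6 against 53.1, 161 and 357 (log2 ratio -2.05). Pde1a, a calmodulin-dependent phosphodiesterase, had 0, 53.9 and 279 against 110.4, 207 and 339 (log2 ratio -1.55). All 5 had low-share cells above every high-share cell, from 2 cells for Pde1a to 9 for Yaf2.

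**Figure D5:**
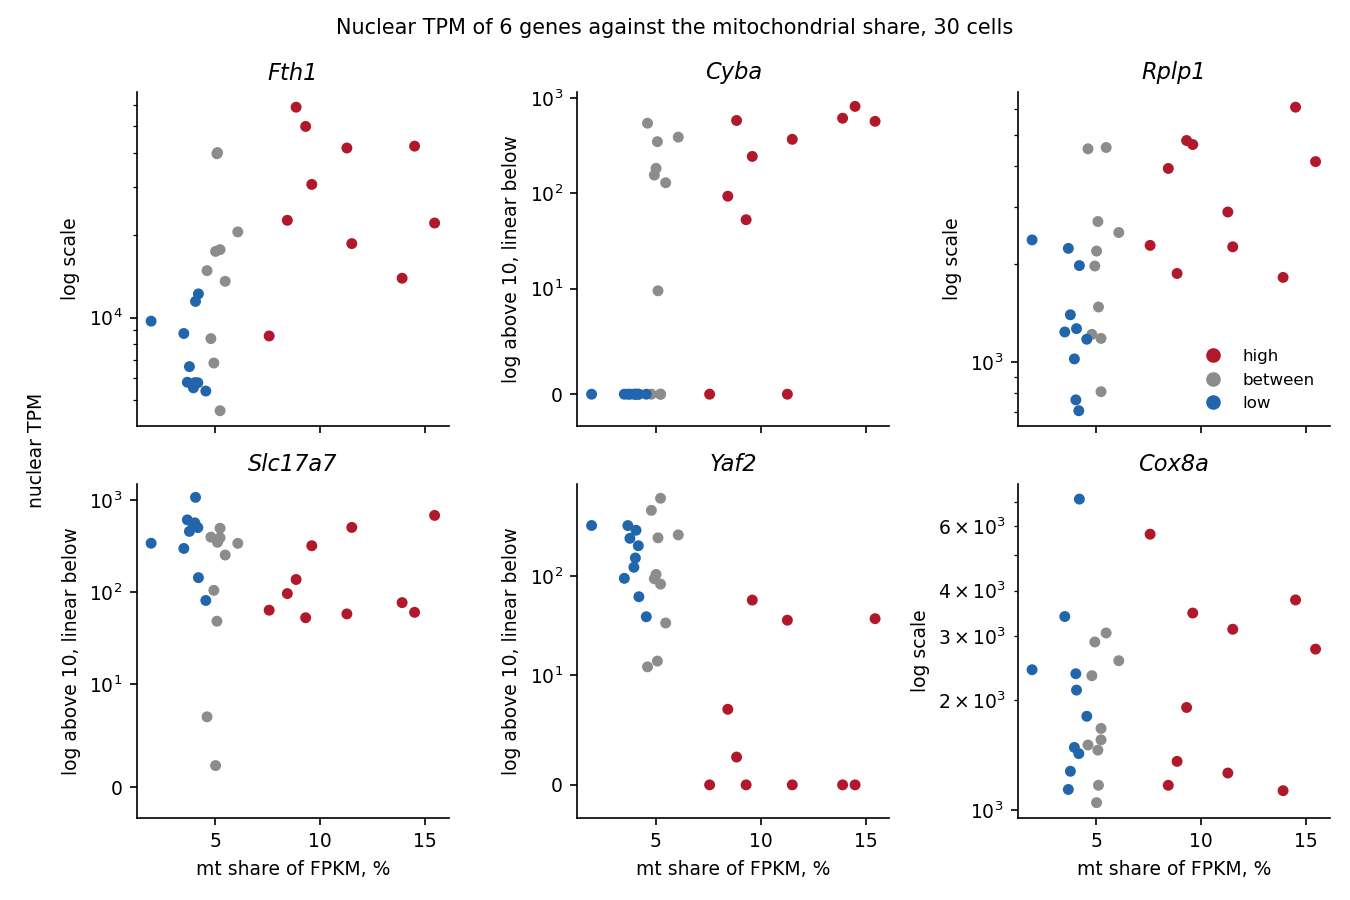
Nuclear TPM of Fth1, Cyba, Rplp1, Slc17a7, Yaf2 and Cox8a in each of the 30 cells against the mitochondrial share in percent, coloured by set, on log axes or, for Cyba, Slc17a7 and Yaf2, axes linear below 10. Fth1 lies above 12215 in 9 of 10 high-share cells, Cyba is at 0 in all low-share cells, and Cox8a has a log2 ratio of 0.063.

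Neuronal transcripts had a lower summed level in the high-share cells, as given above. Of the 35 measured synaptic and neuronal genes, 0 were called higher and 10 lower, a share of lower genes near the 28.4% of all measured genes. The median was -0.76, or -0.37 relative to all measured genes. Mapt, the axonal microtubule protein tau, had 0.665, 125 and 264 nuclear TPM against 149, 273 and 732 (log2 ratio -1.24). Grin2b, an NMDA receptor subunit, had 0, 39.1 and 135 against 12.95, 132 and 259.5 (log2 ratio -1.31), and Gria3, an AMPA receptor subunit, 0, 29.9 and 261 against 19.2, 137 and 323 (log2 ratio -1.46, or -2.202 without LS_10). Tubb3, neuronal tubulin, had a log2 ratio of -1.23, or -1.82 without LS_6. Most neuronal genes of the list were not called. Calm2, calmodulin and the most abundant of the list, had 618, 2735 and 5661 against 2823, 4458 and 6126 (log2 ratio -0.76, not called), and Camk2a, the kinase of excitatory synapses, 379.9, 2393 and 4696 against 1144, 3022 and 4784 (log2 ratio -0.16).

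Of 8 measured markers of glutamatergic cortical neurons 5 were called lower and 0 higher, with a median of -1.16. Without Slc17a7 and Neurod2, which entered the choice of the cells, 3 of 6 were lower and the median was -0.99. Slc17a7 had 52.9, 86.7 and 678 against 81.2, 477 and 1063 (log2 ratio -1.16, or -0.93 without LS_17). Neurod2 had a log2 ratio of -1.36, or -2.26 without LS_18 and -0.903 without LS_3. Of 8 markers of upper layers 3 were called lower and 0 higher (median -0.72), among them Otof at -2.38 (-3.85 without LS_45) and Calb1, a calcium buffer, at -1.304 (-1.94 without LS_25). The 3 cells named above were set apart, and the 24 kept, by the sum of the synaptic list itself. A smaller difference of that list without the 3 follows from this choice, so nothing is concluded from it. Without the 3 cells the synaptic median was -0.15 and the glutamatergic median -0.53 relative to all genes. Ranking the 24 cells again gave -0.13 and -0.29. Fewer neuronal transcripts per cell and more RNA of other cells in the same library cannot be told apart here.

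Most measured markers of microglia and astrocytes were higher in the high-share cells. The 10 microglia markers, 6 of them measured and none at 0 in all 20 cells, summed to 251, 3999 and 9780.2 nuclear TPM in the lowest, median and highest high-share cell and to 0, 942 and 4034 in the low-share cells. In 5 high-share cells the sum exceeded every low-share cell, while LS_25, the cell of the largest share, had only 251. Of the 6 measured, 5 were called higher and 0 lower (median 2.15). C1qa, a chain of the complement protein C1q, had 0, 1201 and 2926 against 0, 0 and 1057, with reads in 8 and 4 cells (log2 ratio 2.63, or 3.83 without LS_42). C1qb had 23.03, 1269 and 3141 against 0, 567 and 1871 (log2 ratio 1.14, as low as 0.92 without LS_13). The receptor genes that define microglia were sparse in both sets. Cx3cr1 had reads in 4 high-share and 2 low-share cells, P2ry12 in 3 and 3, and Csf1r in 5 and 4.

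The 12 astrocyte markers, 7 of them measured and none at 0 throughout, summed to 459, 2463 and 7829 against 94.5, 762 and 2659.8 nuclear TPM. Of the 7 measured, 6 were called higher and 0 lower (median 1.53). Without Gfap and S100b, which entered the choice of the cells, 4 of 5 were higher and 0 lower, and the median was 1.25. Gfap, the intermediate filament of astrocytes, had 0, 170.5 and 3057 against 0, 1.47 and 81.2, with reads in 8 and 5 cells (log2 ratio 5.13, or 4.29 without LS_13 and 5.86 without LS_11). S100b had 0, 49.9 and 421 against 0, 0 and 44.1 (log2 ratio 3.14, or 2.52 without LS_22). Cells with all of Gfap, S100b and Aqp4 had been removed, and Aqp4 had reads in 1 high-share and 1 low-share cells. Slc1a2, the glutamate transporter, had a log2 ratio of 1.66, or 0.61 without LS_30. Aldh1l1, another astrocyte marker, was sparse and went the other way. Its highest values in high-share cells were 154.9 nuclear TPM in LS_25 and 9.99 in LS_4. In low-share cells they were 210.3 in LS_33 and 77.6 in LS_32. Both glial differences remained without the 3 cells of few neuronal transcripts, at 2.36 for microglia and 2.202 for astrocytes relative to all genes. Their part in the other results was not tested. When only the 19 cells under 2000 nuclear TPM of microglia markers were ranked, 9 at each end, 3 of the 10 high-share and 8 of the 10 low-share cells were among them and the ratio of mean shares was 1.94, so that this is largely another set of cells. Fth1 had a log2 ratio of 1.62 there and the ribosome list stood 0.47 above all genes. The median of the nuclear OXPHOS list relative to all genes was -0.016.

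Other cell types differed less. Of the 14 oligodendrocyte markers 3 were measured and 1 was called lower, and Mog and Olig1 were at 0 in all 20 cells. The lower one was Mbp, which entered the choice of the cells (log2 ratio -2.08). Their sum was 1238, 19574 and 60382 against 305, 6667 and 61139.8 nuclear TPM, most of it from Ptgds, a prostaglandin synthase that is also made by the meninges, at 1109, 13865 and 51811 against 14.96, 4489 and 57771 (log2 ratio 0.41, or 1.002 without LS_32). Of 10 endothelial and mural markers 2 were measured and none was called, with Rgs5 at 0 in all 20 cells. Among the 14 GABAergic markers only Cck, which glutamatergic neurons also use, was measured (log2 ratio -0.11, or 0.1005 without LS_11), Vip was at 0 in all 20 cells, and Gad1 had reads in 3 high-share and 1 low-share cells. Of 12 markers of layers 4 to 6 only Ctgf was measured (log2 ratio -0.21, or -0.74 without LS_4 and 0.43 without LS_32). None of the 5 red blood cell genes was measured.

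Immediate early and stress genes were called in both directions. Of 17 measured immediate early genes, which neurons switch on within minutes of firing, 5 were called higher and 3 lower. Of all measured genes, 11.2% were higher and 28.4% lower. The median of the list was 0.199, or 0.60 relative to all measured genes. Fos had 0, 1336 and 4794 nuclear TPM in high-share and 0, 497 and 7944 in low-share cells (log2 ratio 0.48, or 1.89 without LS_42). Cyr61, a secreted matrix protein, had 0, 655 and 3508 against 0, 18.3 and 1526 (log2 ratio 2.42, or 4.47 without LS_32). Homer1, a scaffold of the synapse, had 0, 10.7 and 42.3 against 4.35, 49.04 and 279 (log2 ratio -2.63). Dusp1, a phosphatase of MAP kinases, had a log2 ratio of 2.12 that turned to -0.16 without LS_18. Bdnf, a neurotrophin, had -1.81, or 1.44 without LS_3 and -3.61 without LS_30. Nr4a1, the most abundant of the list, had -0.26.

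Of 18 measured stress genes 3 were higher and 3 lower (median -0.14, or 0.26 relative to all measured genes). Hspb1, a small heat shock protein, had 0, 241 and 2474 against 0, 0 and 429.5 (log2 ratio 2.38, or 1.65 without LS_13 and 2.99 without LS_42), with 51.6% of its windows in a pseudogene. Hmox1, which frees iron from haem, had 0, 215 and 1659 against 0, 1.14 and 957 (log2 ratio 1.94, or 4.26 without LS_32). Atf3, a stress-induced transcription factor, had 2.08 (4.01 without LS_3) and Gadd45g -1.81. Of 13 measured enzymes that remove reactive oxygen 4 were higher and 0 lower. Their median was 0.21, which is 0.61 above all measured genes and 0.65 above genes of like exon length. Prdx1, a peroxiredoxin, had 6.24, 391 and 565 against 10.2, 141 and 355, with 6 high-share cells above all low-share cells (log2 ratio 1.196). Prdx6 had 1.35 (2.42 without LS_33) and Cat, catalase, 1.02 (as low as 0.87 without LS_11). Sod1, the most abundant of these enzymes, had 236, 605 and 1034 against 321, 827 and 1216 and a log2 ratio of -0.34. Of the 6 subunits of the sodium pump, the main consumer of ATP in neurons, 1 was lower and 0 higher (median -0.27). Of 17 measured housekeeping genes 1 was higher, B2m at 1.52, and 2 were lower, and Actb had -0.0196.

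Genes were also ranked by the size of the ratio. Ranked so, with 8 or more of the higher set's 10 cells required to hold reads and a mean there of 50 or more, Cxcl2, a chemokine, led with 0, 134 and 8102 nuclear TPM against 0, 0 and 89.8. Its log2 ratio of 6.33 came mostly from LS_18 and was 3.92 without that cell and 8.14 without LS_40. Lgals3, a galectin of phagocytes, had 0, 63.01 and 1454 against 0, 0 and 35.9 (log2 ratio 5.88, or 4.68 without LS_22 and 8.78 without LS_32), with 7 cells above all low-share cells. Gfap, Rgs19 (4.82, or 6.52 without LS_42), the interferon-induced Ifi27l2a (4.53, or 5.68 without LS_42), Pmp22 (4.37, or 5.44 without LS_32), Nampt (4.27, or 6.91 without LS_32), Igfbp5 (4.07, or 3.26 without LS_22), Hbegf (3.99, or 4.89 without LS_40) and Tyrobp (3.4004) followed. Tyrobp, the adaptor of microglial receptors, had 0, 1092 and 2673 against 0, 34.996 and 349.5. Hbegf, a ligand of the EGF receptor, had 0, 123 and 573 against 0, 0 and 68.002, and 8 of 10 high-share cells lay above every low-share cell. The rule asked for reads in 8 or more cells of the higher set and took the largest ratios. Such counts, here and at the other end, therefore follow in part from the choice and support nothing.

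At the other end stood Tmem175, a potassium and proton channel of lysosomes, with 0, 0 and 13.99 nuclear TPM against 0, 30.5 and 350.2 and reads in 2 and 9 cells (log2 ratio -5.39, or -8.77 without LS_18 and -4.39 without LS_34). Fam160b1 (-4.39, or -6.09 without LS_10), H2-DMa (-4.27), Wbscr22 (-4.004, or -5.75 without LS_10), Drp2 (-3.93, or -4.67 without LS_10 and -3.23 without LS_33), Uba3 (-3.86, or -6.61 without LS_25), Hapln4 (-3.78, or -4.52 without LS_6 and -3.08 without LS_34), Yaf2 and Wasf3 (-3.73) were also among the 10 lowest ratios. H2-DMa, a gene of antigen loading, had reads in 1 high-share cell, LS_45, without which no ratio can be given, and in 9 low-share cells, opposite to the microglia markers. Wasf3, an actin regulator, had 0, 0.945 and 26.1 against 0, 84.3 and 213, but a log2 ratio of only -0.47 when the 24 cells with more neuronal transcripts were ranked again.

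Of the genes that the study compared between LS and NS cells, 3 were looked up here. Rtn4r, the Nogo receptor, had 0, 108 and 405 nuclear TPM in the high-share and 0, 46.8 and 529 in the low-share cells (log2 ratio 0.53, or 1.19 without LS_40). Nptxr, the neuronal pentraxin receptor, had 2.91, 377 and 1230.4 against 20.001, 746 and 2129 (log2 ratio -0.95), and Rgs7, a regulator of G-protein signalling, 13.7, 88.02 and 464 against 12.4, 67.9 and 310.4 (log2 ratio -0.028, or -0.66 without LS_6 and 0.29 without LS_11). None of the 3 was called, and all overlapped between the sets.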

How the data were processed

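The authors aligned the Smart-seq2 reads to GRCm38 with STAR 2.5.3a and counted them with featureCounts, as the submitters' processing notes name them, and deposited FPKM values for 20183 protein-coding genes in all 63 cells. STAR ran at its defaults apart from output sorting, and the featureCounts setting for reads with several matches is not given in the sources used here. Gene names that appear repeatedly (4 rows) were dropped, and 0 per-cell columns stayed unused. FPKM of nuclear genes were rescaled to a sum of 1000000 per cell. Since FPKM times exon length moves in whole steps within a cell, reads could be worked back, with 99.99% of low values whole within 0.02 reads. Recovered totals were tested on simulated data and came back within 0.1% for 63 of 63 cells. Of 200 genes planted with known ratios between high- and low-share cells, 187 came back within 0.2 on the log2 scale (6045 genes simulated). The planting checks the computation and is no measure of how exact the ratios above are. Leaving out 1 cell moved 39 of 96 named genes by over 1.5 times. Intervals of cell shares are exact binomial ones and cover counting error only. Ratios of means over cells, Spearman's rho and the counts past 2-fold were computed with Python 3.11.15, pandas 2.3.3, numpy 2.4.6 and scipy 1.17.1, and figures with matplotlib 3.10.9.

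The members, the gene lists and the settings were chosen with earlier results of these data known, so no list is independent evidence of its direction. The genes named are the 13 mt- genes, the 10 highest and 10 lowest ratios among genes with reads in 8 cells or more and a mean of 50 or more in the higher set, up to 4 members of each list with the largest ratio and its most abundant member, the 5 highest and 5 lowest correlations with the share, and 7 genes picked by name (Lars2, Slc17a7, Neurod2, Fos, Rtn4r, Nptxr and Rgs7). Ftl1 was added after its values were seen, and from the named sets those that carry the results are printed. Some genes that meet these rules are not reported here. Alternatives changed the scaling, the summary over cells, the pseudocount, the filter, the number of cells, the ranking, the depth and the cells admitted, and left out each of the 20 cells in turn.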

Additional observations from a re-analysis of the deposited data

Results flagged for a closer look

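In sets of 10 cells, a single cell was marked when its gap to the nearest other cell passed Dixon's critical share of the set's whole range, on the scale log2(value + 1) for gene levels and list sums. This was done for 287 sets of values and marked 41, where chance alone marks about 1 in 20. The share, the reads and the list sums gave 11 of them. Among low-share cells, LS_32 had the lowest share, at 1.93%. Between the ends, LS_41 had 2496259 reads. LS_4 had 9980 genes above 1 FPKM, the most of the high-share cells. LS_13 was lowest of the high-share cells for the upper-layer markers, at 3.31 nuclear TPM, and for the GABAergic markers, at 12.4. In the low-share set LS_17 had 11.1 nuclear TPM of complex II and LS_34 had 13555 of complex V, the first the lowest and the second the highest cell. LS_11 was lowest for the stress list, at 3301, and the antioxidant list, at 1159. LS_42 was lowest for the synaptic and neuronal list, at 18393, and LS_33 had 0 nuclear TPM of microglia markers.

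Among single genes of the high-share cells, one cell was far above the others for Tmem175 (LS_18, 13.99 nuclear TPM), Fam160b1 (LS_10, 22.2), H2-DMa (LS_45, 68.9, all others at 0) and Uba3 (LS_25, 45.3). One cell was far below the others for Rplp0 (LS_35, 22.9), Mapt (LS_4, 0.665), Prdx1 (LS_10, 6.24) and C1qb (LS_4, 23.03). A single high-share cell at 0 was marked for Ndufa1 (LS_10), Sdhc (LS_30), Grin2b and Rtn4r (both LS_13), Cyr61 (LS_35) and Cat (LS_25).

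Among low-share cells, LS_32 was far above the others for Lgals3 (35.9 nuclear TPM) and Nampt (23.8), and far below for Gria3 (19.2) and Grin2b (12.95). LS_40 was lowest for Ogdh (7.81), LS_11 for Mdh2 (32.05) and LS_34 for Nptxr (20.001). A single low-share cell at 0 was marked for Stk25 and Cyc1 (LS_34), Ndufa1 and Cox6b1 (LS_17), Otof and Gadd45g (LS_32), and Nr4a1 and Dusp1 (LS_33). mt-Nd3 had 2.59 FPKM in LS_17 and 0 in the other low-share cells.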

How the results depend on the processing

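The counts of genes past 2-fold, 683 higher and 1725 lower, moved by over 1.5 times under 8 of 39 changed settings, both of them under 5. Lower genes numbered 1137 on FPKM that were not rescaled, with 690 higher, so that 37.8% of called genes were higher in place of 28.4%. They numbered 2653 with medians over cells and 2792 with the mean of log2(value + 0.1). Requiring a gene in 5 of 20 cells gave 1890 higher and 2944 lower, in 16 of 20 cells 147 and 569, and no filter 3157 and 3971. With 15 cells per end the counts were 394 and 1068. Centred on the median of all genes, they were 1104 and 1082. Leaving out 1 cell gave 573 to 667 higher and 1511 to 1784 lower genes. Alternatives on centring, microglia markers, neuronal sums and cells left out with the measured genes kept were chosen after seeing the data. Thinned to 200000 reads per cell, 611 genes were higher and 1543 lower, and the cytosolic ribosome list stood 0.96 and the nuclear OXPHOS list 0.58 above all genes. Measured in reads, the ratio of mean shares was 3.73.

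Of 1050 list medians under changed settings, 1047 kept within 1 SD of the cells, which is a wide limit. For biogenesis that SD was 1.96, and its median ran from -1.02 without LS_10 to 0.69 without LS_32. Ranking by share of reads and requiring 3000 genes chose the same high- and low-share cells, so neither could change a value. The median of mitochondrial gene expression was -1.76 and that of biogenesis -3.19 with medians over cells. With only cells under the microglia limit, which selects on that list, the microglia median was -0.0505. Of 3570 log2 ratios of named genes 17 changed sign. Ndufb2 was -0.41 with medians, -0.55 with 7 cells per end, -0.72 with the cells removed for markers kept, -0.79 without LS_35, 2.198 at the highest of the cells left out (LS_33) and -0.63 under the microglia limit. Under that limit Ndufa1 was -0.77, Neurod2 0.36, Prdx6 -0.15, Cat -0.16 and C1qc -0.56. Slc1a2 was -0.57 with medians and -0.29 with log2(value + 0.1). Bdnf was 0.0041 with log2(value + 1), 0.399 with log2(value + 0.1) and 1.44 without LS_3, and as low as -3.61 without LS_30. Dusp1 was -0.16 without LS_18 and up to 2.44 without another cell. The cause was not tested for any of these. Of 96 named genes, 42 were called higher and 35 lower, and 33 and 30 of them stayed past 2-fold whichever of the 20 cells was left out, with the measured genes kept as they were.

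The labels name no mouse, litter or date, so differences between cells and differences between animals or days cannot be told apart. No paired analysis was possible because the labels tie no high-share cell to a low-share cell and no test was made. Depth of 357465 to 2375659 reads per cell limits what can be said of genes of low level, and a value of 0 is not shown to be absence.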
